A study of Mus musculus with 15 samples.

Results

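The promoter contacts of the Late group were compared with those of the Early group in promoter-capture Hi-C libraries of mouse hippocampal neuronal nuclei. The comparison takes 8 of the 15 libraries of the series, 4 per group, and was read from the interaction score that the authors gave each promoter and HindIII fragment. The table holds 36353 listings of a promoter with a fragment, for 4429 promoters and 33334 distinct fragments. Of these listings, 25358 had a score in at least 1 of the 8 libraries. All animals carried ArcCreERT2 and R26R-STOP-floxed eYFP with genotype +/+. The promoter of Arc thereby drives a tamoxifen-dependent Cre, and the fluorescent label marks cells in which it was active while 4-hydroxytamoxifen was present. Mice were kept in the dark for 24 h before contextual fear conditioning, the drug was given 1 h before the task, and mice not killed soon after it went back into the dark for 48 h. Nuclei were sorted with antibodies to NeuN, a neuronal nuclear protein, and GFP. Brains were taken either 1.5 to 2 h or 5 days after conditioning per the labels, the latter also after a return to the testing room, and no interval is tied to the titles Early and Late. Each condition pooled 10 to 12 mice for its 10000 nuclei, so a library is no single animal. Whether separate pools lie behind the libraries of a group is not given, and the tests measure only the spread between libraries.

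A promoter can be brought near a distant stretch of DNA by looping of the chromatin fibre, often through cohesin and CTCF, and such contacts can join a gene to its enhancers. In capture Hi-C, crosslinked DNA is cut and religated, and ligation products that hold a baited promoter are fished out and counted by the fragment at their other end. Neurons that express Arc, an immediate early gene whose product acts at synapses, during learning are used as a label for the cells that carry a memory. Contact scores do not measure expression, so the neuronal identity of the nuclei could not be checked with marker genes.

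Late 1 and Late 2, Late 3 and Late 4, and Early 3 and Early 4 shared between 49.1% and 90.9% of the listings of the smaller library, with a Spearman correlation of 0.856 to 0.979 between the shared scores. The 9 other pairs of libraries within a group shared 8.10% to 15.6%, and the 16 pairs of an Early with a Late library shared 7.17% to 24.0%. Each of the 3 closely matching pairs was therefore weighed as 1 unit. This left 3 Early units, namely Early 1, Early 2 and the Early pair, against 2 Late units, called the first Late pair (Late 1 and 2) and the second Late pair (Late 3 and 4). The number of listings was 6956, 1715, 5615 and 6687 in Early 1 to 4, and 3435, 3753, 8225 and 8296 in Late 1 to 4. Median scores were 65, 155, 100 and 64 in Early, and 18, 19, 160 and 99 in Late. Early 2 was the sparsest library, and the first Late pair had the lowest scores. The number of listings per unit was 4941 ± 2822 (SD, n = 3) in Early and 5927 ± 3300 (SD, n = 2) in Late, with p = 0.7 in an exact two-sided permutation test, where 2 units against 3 cannot give a p below 0.1.

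**Figure D1:**
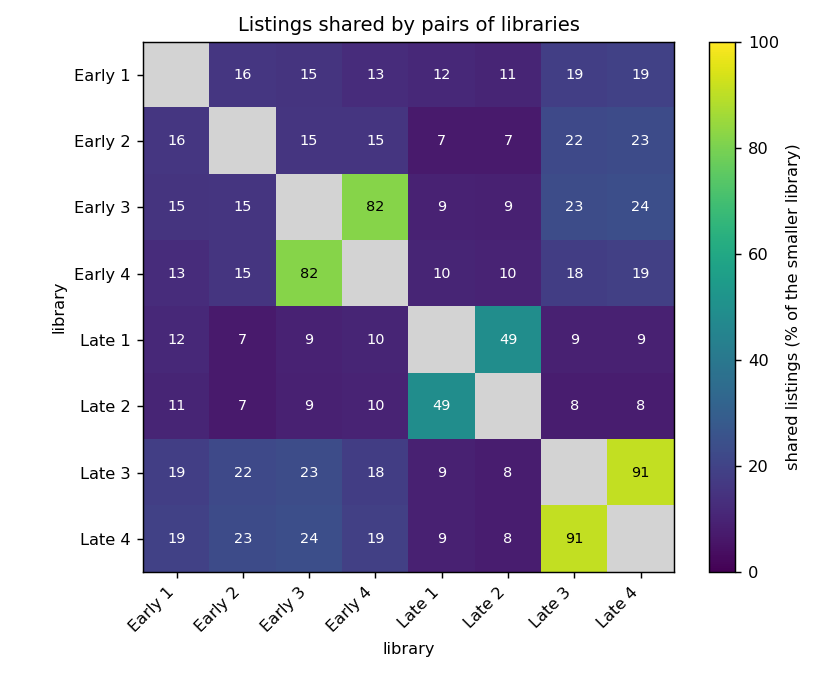
Share of listings in common between every pair of the 8 libraries, as a percent of the smaller library; both axes list the libraries and grey marks a library with itself. The 3 bright pairs, from 49.1% to 90.9%, stand apart from all other pairs, which lie between 7.17% and 24.0%.

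Most contacts were found in a single unit. Contacts with a score of at least 5 count as called, and 24465 listings were called in Early or Late. Of these, 9969 (40.7%) were called in Late alone, 11098 (45.4%) in Early alone and 3398 (13.9%) in both groups. Exactly 1 of the 5 units held 20182 of the called listings (82.5%), and 29 were called in all 5. The 2 Late pairs shared 437 called listings, or 7.97% of those of the first and 5.25% of those of the second. The second Late pair shared 1295 with Early 1 and 1388 with the Early pair, which made up 15.6% and 16.7% of its own calls. With Early 2, which had few calls, it shared 383, or 4.60% of its own. By number, the second Late pair thus had more calls in common with Early 1 and with the Early pair than with the first Late pair, and fewer with Early 2. As a share of the other unit's calls, it shared 18.9% of Early 1, 18.9% of the Early pair and 23.0% of Early 2. This share was 7.97% for the first Late pair.

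The Late pairs also differed in how far their contacts reached. Bait positions were not used here, so distance was taken from the middle of the fragments listed for a promoter, for promoters with at least 5 fragments. Median distances were 441 kb in the first Late pair and 88.1 kb in the second. The Early units lay between them, at 171 kb in Early 1, 152 kb in Early 2 and 147 kb in the Early pair. Contacts more than 1000 kb away made up 33.5% and 8.31% in the Late pairs, against 26.1%, 25.9% and 24.2% in the Early units. These values take contacts called in either library of a pair. Within the Early pair the libraries were unlike in this respect, with 9.07% in Early 3 and 26.1% in Early 4. Their medians were 83.1 kb and 164 kb, so Early 3 lay near Late 3 and Late 4, at 87.6 and 83.6 kb. No direction of change in reach can be given for Late. Its pairs fell on opposite sides of the Early units, and the second was like Early 3.

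**Figure D2:**
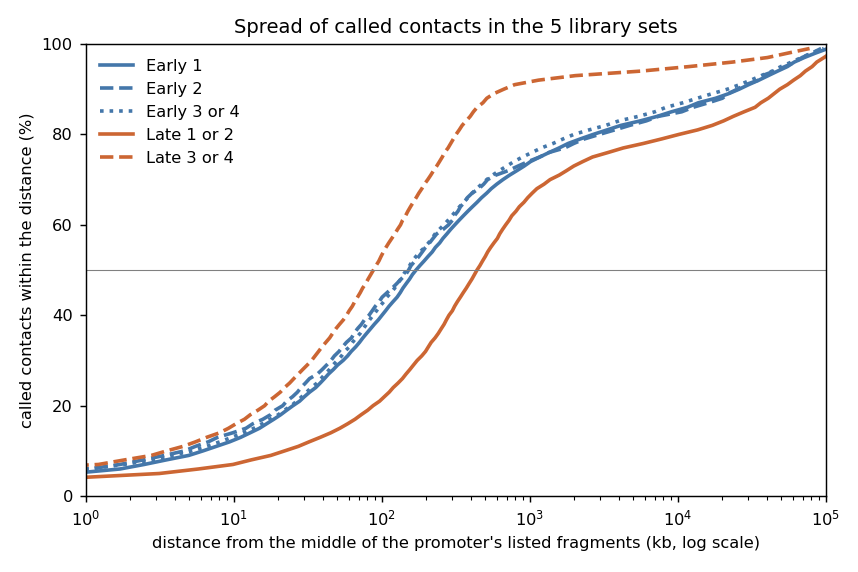
Cumulative percent of called contacts (vertical axis) within a distance in kb from the middle of the promoter's listed fragments (horizontal axis, log scale) for the 3 Early units in blue and the 2 Late pairs in orange. The Early curves run close together, with medians from 147 to 171 kb, and lie between the second Late pair at 88.1 kb and the first at 441 kb. A pair's curve takes contacts called in either library, and Early 3 alone had a median of 83.1 kb.

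Across single contacts, no listing passed limma's test on asinh scores of the 5 units (0 of 36353 with a Benjamini-Hochberg adjusted p under 0.05, 0% in either direction). At an unadjusted p under 0.05, 81 listings (0.223%) were higher in Late and 0 were lower. These counts depended on the fit. They were 0 and 0 on log2(score + 1), and 154 and 22 without the variance trend, so no lean toward Late is read from them. Tested on simulated data, this fit missed changes of single listings that had been put in, so a listing that did not pass is not shown to be alike in both groups. Without the variance trend, the same test called 15 listings, 13 higher and 2 lower.

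Gained contacts were defined as those called in both Late pairs and with no score in any Early library. There were 250 of them, 0.688% of all listings, on 218 distinct fragments and at 232 promoters, which is 5.24% of promoters. Lost contacts, called in all 3 Early units with no Late score, numbered 21 (0.0578%) on 19 fragments and at 21 promoters (0.474%). These counts rest on 2 units in one direction and 3 in the other, and so are not set against each other. With 2 Early units against the 2 Late pairs, 317 contacts were gained and 91 lost for Early 1 and Early 2, and 295 were gained and 94 lost for Early 2 and the Early pair. For Early 1 and the Early pair, 260 were gained and 472 lost. Whether more contacts were gained or lost thus turned on whether Early 2, with 1715 listings, was counted. A wider definition, called in at least 2 of the 3 Early units with no Late score, gave 615 lost contacts (1.69%) at 546 promoters (12.3%).

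**Figure D3:**
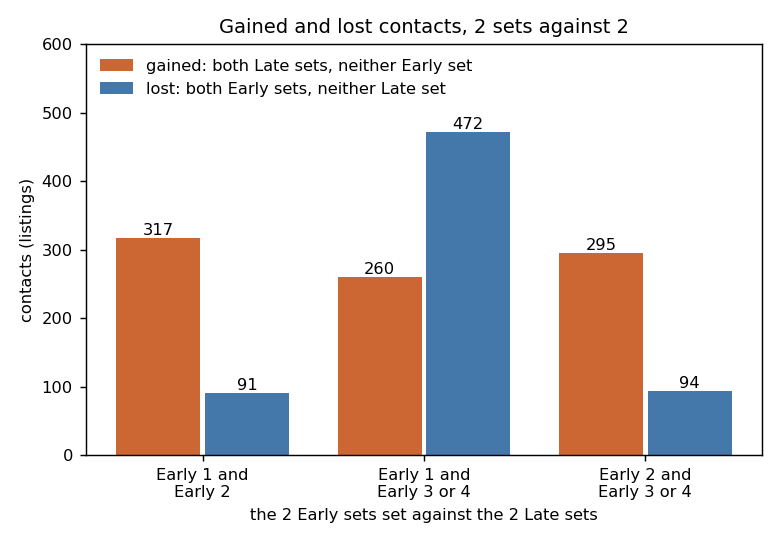
Number of listings (vertical axis) gained, in orange, and lost, in blue, when each choice of 2 Early units (horizontal axis) is set against the 2 Late pairs. Gained contacts range from 260 to 317, while lost contacts are 91 and 94 with Early 2 and 472 without it.

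A score in each of Late 1 to 4 and none in Early was found for 87 listings (0.239%), and the 8 described here had the highest minimum over the Late libraries. Cd2bp2, which encodes a protein of the U5 splicing particle, was listed with chr7:134168163-134171043 (mm9), with scores of 193, 233, 205 and 188 in Late 1 to 4. That fragment is also listed with Mvp, the major vault protein, and Ppp4c, the catalytic subunit of protein phosphatase 4, so its score cannot be given to 1 promoter. It was not particular to Late, since it scored 203, 147 and 19 in Basal 1 to 3 and 1262 and 1646 in Reactivated 3 and 4.

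For the fragment of Hepacam, a glial adhesion protein, at chr9:37421784-37423073, the Late scores were 116, 155, 716 and 530. The fragment of Col27a1, a fibrillar collagen, at chr4:62957508-62958171, had 96, 125, 821 and 652. In Slc36a1, a proton-coupled amino acid transporter, the fragment at chr11:55196778-55200161 had 70, 80, 550 and 319. In these 3 cases the second Late pair scored several times as high as the first, and no Basal or Reactivated library had a score. A gap between the Late pairs was also seen over all listings, with medians of 18 and 19 against 160 and 99. Serf2 had similar scores in both Late pairs, 92, 149, 127 and 72 at chr2:121230893-121243598, and 987 and 587 in Basal 1 and 2.

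Scores of 65, 63, 171 and 113 were listed for Capn7, a calpain protease, at chr14:32045547-32068676. Cwc27, a spliceosome-associated prolyl isomerase, had 63, 62, 142 and 92 at chr13:105581924-105583227. The homeobox factor Onecut2 had 58, 68, 311 and 208 at chr18:64035916-64042025. All 8 fragments were chosen for a score in each Late library and in no Early library, so the lack of overlap was fixed by the choice. Their Late minus Early differences were between 5.13 and 6.35 on the asinh scale, with standard errors from 3.60 to 3.83 and an adjusted p of 0.822 in limma's test. Arc itself had a fragment of this kind at chr15:74557103-74558248, with lower scores of 22, 20, 12 and 15 and no score in Basal or Reactivated.

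In the other direction, 16 listings (0.044%) had a score in each of Early 1 to 4 and none in Late. Zhx1, a zinc finger and homeobox repressor, had the most even scores, 324, 330, 431 and 279 in Early 1 to 4, at chr15:57891154-57902090. The fragment of Atg10, an enzyme of autophagosome formation, at chr13:91348603-91354112 had 149, 210, 401 and 232. For Rhobtb3, an atypical small GTPase, the values at chr13:76088058-76089946 were 491, 144, 1188 and 617. Early 3 was the highest library in each of these 3.

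Nfatc3, a transcription factor activated by calcineurin, had 171, 200, 231 and 118 at chr8:108572869-108574433. Ace, the angiotensin-converting enzyme, shares chr11:105820595-105831583 with Cyb561, and the scores were 153, 606, 168 and 89. Kpnb1, which encodes the nuclear import receptor importin beta, had 87, 222, 742 and 379 at chr11:97036811-97041101. The scores of Ace and Kpnb1 thus varied severalfold among Early libraries, while the lack of Late scores was a condition of the choice.

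Slc26a8, an anion transporter known from sperm, had 82, 1128, 283 and 138 at chr17:28833229-28834717. Mzt1, a small protein of the gamma-tubulin ring complex, had 401, 836, 101 and 61 at chr14:99450828-99455653. These 8 differences ran from -6.67 to -5.88 on the asinh scale, with standard errors of 4.33 to 4.56 and an adjusted p of 0.822 in limma's test. Each of the 8 lost fragments also had scores in Basal or Reactivated libraries, as for Mzt1 with 1809 and 919 in Basal 1 and 2 and 3878 and 5946 in Reactivated 3 and 4. Without the variance trend, the Cd2bp2, Serf2, Zhx1 and Nfatc3 fragments passed, with adjusted p = 0.000675 for Cd2bp2 and Zhx1.

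**Figure D4:**
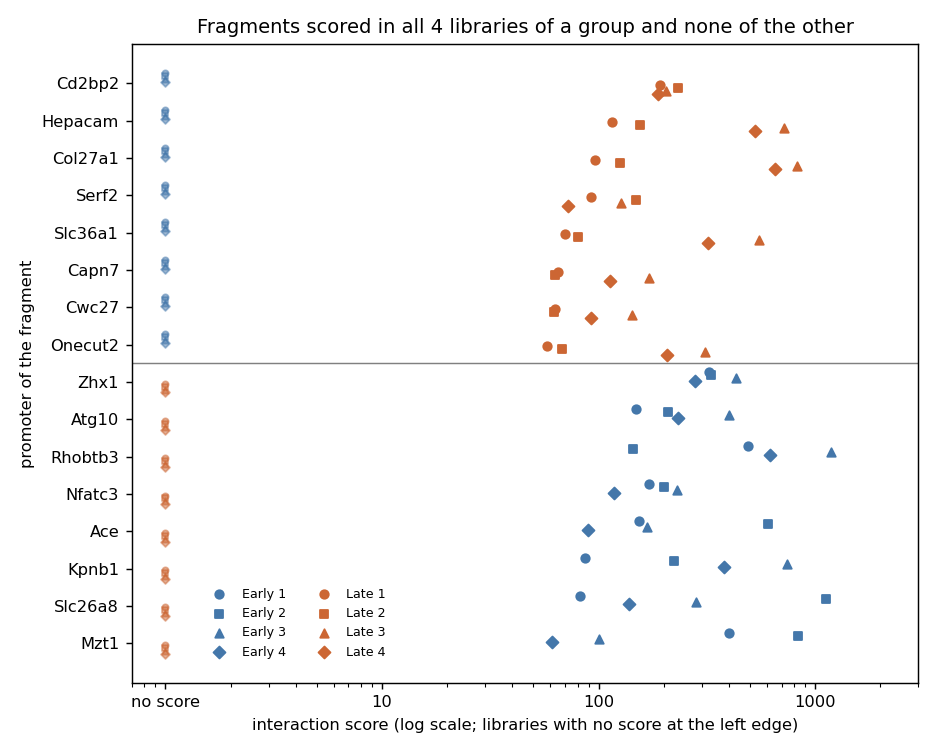
Interaction score (horizontal axis, log scale, libraries with no score at the left edge) of 8 fragments gained and 8 fragments lost in Late, named by promoter (vertical axis), with 1 marker per library in blue for Early and orange for Late. Each fragment was chosen for having 4 scores in one group and none in the other. Cd2bp2 and Zhx1 have the most even scores, from 188 to 233 and from 279 to 431.

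Gained contacts had median scores of 20, 22, 287 and 211 in Late 1 to 4. The other 187 listings called in both Late pairs, which had an Early score as well, had 30, 25, 272 and 184. Both were above the 160 and 99 of all listings in Late 3 and 4, where the rule for gained contacts asks for a call. Their fragments had a median length of 2876 bp, near the 2940 bp of all listings scored in the 8 libraries. Several promoters shared 22.4% of gained listings, against 19.2% of all scored ones. Far contacts, over 1000 kb, were less common among gained contacts, at 7.93% against 23.7% of all scored listings, and made up 11.5% of contacts lost in at least 2 Early units. Since a contact over 1000 kb was rare in the second Late pair, at 8.31%, the rule for gained contacts could take few of them.

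Basal 3 held a score for 34.4% of gained contacts, Basal 1 or 2 for 20% and Reactivated 3 or 4 for 21.2%. The same shares over all listings scored in the 8 libraries were 14.2%, 10.5% and 20.0%. Contacts lost in at least 2 Early units were found in Basal 3 at 17.1%, in Basal 1 or 2 at 17.6% and in Reactivated 3 or 4 at 35.8%. Gained and lost contacts had both been seen in at least 2 units, so shares are also given for all listings called in as many units of the group. Of listings called in both Late pairs, whether or not seen in Early, 36.4%, 25.9% and 33.2% scored in Basal 3, Basal 1 or 2 and Reactivated 3 or 4. Of listings called in at least 2 Early units, these shares were 28.2%, 25.1% and 45.7%. Beside these, the share of gained and of lost contacts was lower in each place. Gained and lost contacts are what is left of these classes once listings scored in the other group are taken out. The rule thus removes listings seen in more groups, and whether the lower shares go beyond that was not tested. Without any score in Basal or Reactivated, 117 gained contacts and 6 of the 21 lost contacts remained.

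Chromosome 7 held 33 gained contacts, 2.65% of its 1244 scored listings, on 25 distinct fragments and at 28 promoters. The other autosomes and X had from 0.457% to 1.44%. For lost contacts chromosome 7 did not stand out, with 1.61% of its listings lost in at least 2 Early units. Neighbouring fragments showed little relation. Over 1514 pairs of adjacent fragments of a promoter, the Late minus Early differences had a Spearman correlation of 0.0159 and 51.0% had the same sign. A neighbouring fragment was listed for 58 of the 250 gained contacts, and in 1 pair both neighbours were gained. The listed neighbours of gained contacts were higher in Late in 31 cases and lower in 14, and those of contacts lost in at least 2 Early units in 56 and 62, with no test made.

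Summed over their listed fragments, promoters leaned toward Late, but not beyond the spread between units. The mean asinh score was higher in Late for 2483 promoters (56.1%) and lower for 1722 (38.9%), with a median difference of 0.10. Without Early 2, 2006 were higher and 2178 lower, and the median difference was 0. No promoter passed limma's test (0 of 4429, 0%), with a smallest adjusted p of 0.318. Unadjusted, 151 (3.41%) were higher and 23 (0.519%) lower at p under 0.05, which turned to 99 and 121 without Early 2. The number of called contacts per promoter was higher in Late for 2412 promoters (54.5%) and lower for 1640 (37%), which turned to 1756 and 2021 without Early 2. Of 4180 promoters tested on that number, 0 passed, and 45 (1.08%) were higher and 0 lower unadjusted. Without Early 2 these unadjusted counts were 10 and 13. In 1031 promoters (23.3%) the difference between groups was larger than the gap between the 2 Late pairs. Both Late pairs lay above all 3 Early units for 308 promoters (6.95%), and below them for 88 (1.99%). To lie below, a promoter needs a score in all 3 Early units, Early 2 among them. To lie above, it needs a score in only 2 Late pairs, so these 2 counts are not set against each other.

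A set of promoters was high in both Late pairs through different fragments in each. With the unit as a random block over the 8 libraries, 8 promoters (0.181%) passed limma's test on mean score, all higher in Late, and they are named after their values were seen. They were Tgm2 (transglutaminase 2), Chrna10 (a nicotinic receptor subunit), Aldoc (the brain aldolase), Dgkb (a diacylglycerol kinase), Aim2 (a sensor of cytosolic DNA), Pi15, Filip1 and Rnf20 (an E3 ligase for histone H2B). Their adjusted p in that fit was 0.0111 to 0.0331, against 0.318 to 0.319 with 1 value per unit. Of the fragments of these 8 promoters, 0 were called in both Late pairs. Among all promoters called in both Late pairs, 20.4% held a fragment called in both. The lack of one therefore does not set these 8 apart. Mrpl35 and Arc each had a fragment scored in all of Late 1 to 4. Their adjusted p was similar, 0.319 and 0.361, in limma's test with 1 value per unit.

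At Aldoc, chr11:78114184-78117637 scored 186 and 228 in Late 1 and 2 and nothing in Late 3 and 4. A fragment at chr11:77601719-77603566, on the same chromosome, scored 1355 and 1018 in Late 3 and 4 and nothing in Late 1 and 2. Both Aldoc fragments had scores in Basal 1 and 2 as well, so the promoter's contacts were absent from Early and not limited to Late. Dgkb had chr12:38848287-38854461 with 25 and 28 in the first Late pair and chr12:38766367-38770831 with 100 and 92 in the second. Chrna10 had chr7:107735636-107740145 with 35 and 40 in the first and chr7:109261043-109262564 with 878 and 703 in the second.

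Rnf20 was the most even by number, with 6 called contacts in each of the 4 Late libraries against 1, 0, 0 and 0 in Early 1 to 4. Its calls in the first Late pair fell on 9 fragments and in the second on 6, with 0 in common. Promoters called in both Late pairs and in no Early library numbered 154 (3.48%), and 19 of them (12.3%) had a fragment called in both pairs. Among all 1942 promoters called in both Late pairs, 396 (20.4%) had such a fragment. The reverse rule asks for 3 units and not 2. By it, 23 promoters (0.519%) were called in all 3 Early units and in no Late library. Of these, 3 had a fragment called in all 3 units. A fragment called in at least 2 Early units was held by 12 of these 23 (52.2%), where the choice of 2 among 3 units gives more ways to match than the 2 Late pairs do. Most promoters called in both Late pairs and not in Early were thus called on different fragments in each pair.

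By number of gained contacts, Crebzf, a bZIP protein, led with 3, but it had 163 listed fragments and its called contacts were 16, 4, 10 and 10 in Early and 12, 10, 8 and 11 in Late. The groups overlapped fully there. Zfp90, a KRAB zinc finger repressor, had 2 gained contacts and no call in any Early library, against 1, 3, 3 and 2 in Late. Its fragment at chr8:108687314-108701166 had low scores of 13, 19, 6 and 3. Mrpl35, a protein of the large mitochondrial ribosomal subunit, likewise went from 0 in each Early library to 1, 3, 1 and 2.

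Nfil3, an activity-regulated bZIP repressor, had 2, 0, 1 and 1 calls in Early and 5, 6, 4 and 2 in Late. Its gained fragments were chr13:52805791-52810960, with 34, 43, 22 and 10, and chr13:53184757-53185378, with 48 in Late 2 and 1390 in Late 3. Of the 8 libraries, those that scored 3 further fragments between 52745973 and 52756095 on chromosome 13 were Late 1 and 2, while the neighbour at 52756098-52757805 scored 1136 and 838 in Late 3 and 4. The first of them, at 52745973-52747087, also had 1320 and 729 in Basal 1 and 2. Around this promoter the 2 Late pairs thus listed different fragments side by side. Its difference of mean asinh score was 1.39 (standard error 0.42, limma's adjusted p = 0.921).

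Apbb1, an adaptor of the amyloid precursor protein, had 1, 0, 1 and 2 calls in Early and 2, 0, 4 and 4 in Late. Cadm3, a neural adhesion molecule, had 4, 3, 1 and 1 in Early and 2, 3, 9 and 8 in Late. In both, the surplus lay in Late 3 and 4, and the groups overlapped.

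Of the promoters with the strongest loss, Slc26a8 had 2, 1, 1 and 1 calls in Early and none in Late. Kpnb1 had 2, 1, 1 and 2 in Early and none in Late. Their differences of mean asinh score were -2.51 (standard error 0.50) and -1.38 (standard error 0.30), and the adjusted p was 0.395 and 0.486 in limma's test. Both promoters, picked for their lost contacts, had no overlap between groups, yet did not pass.

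Sh3bp1, which encodes a GTPase-activating protein, had 7, 3, 2 and 4 calls in Early and 0, 1, 1 and 1 in Late. Aes, a corepressor of the Groucho family, had 2, 2, 2 and 3 against 0, 0, 1 and 1. Nfatc3 had 6, 2, 4 and 5 against 1, 1, 2 and 2. Ace had 2, 1, 1 and 1 against 1, 1, 0 and 0. Early was at or above Late in every library of these 4 promoters, with a tie at the edge for Nfatc3 and Ace. Each was picked for a contact called in all 3 Early units with no Late score, so this separation was in part fixed by the choice. The mean score difference of Ace turned to 1.34 from fragments listed with 1 promoter.

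The following promoters are shown by sequence because they stand for the cases above, a promoter that gained fragments (Nfil3), one that lost its fragment (Kpnb1) and one whose Late contacts differed between the Late pairs (Rnf20). The 250 bases before the start site are given 5′ to 3′ from the RefSeq table on GRCm38.p6, a build other than that of the fragments. Capitals mark the GC box GGGCGG or the TATA box TATAAA, on either strand, and overlapping matches run into each other.
Nfil3 (chr13:52981040-52981289, minus strand): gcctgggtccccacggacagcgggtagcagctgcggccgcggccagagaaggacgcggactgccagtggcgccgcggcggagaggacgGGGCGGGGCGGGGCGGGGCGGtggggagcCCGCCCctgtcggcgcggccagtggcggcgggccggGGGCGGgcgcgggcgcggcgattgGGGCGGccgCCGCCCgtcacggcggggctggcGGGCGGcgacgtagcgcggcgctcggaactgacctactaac
Kpnb1 (chr11:97187893-97188142, minus strand): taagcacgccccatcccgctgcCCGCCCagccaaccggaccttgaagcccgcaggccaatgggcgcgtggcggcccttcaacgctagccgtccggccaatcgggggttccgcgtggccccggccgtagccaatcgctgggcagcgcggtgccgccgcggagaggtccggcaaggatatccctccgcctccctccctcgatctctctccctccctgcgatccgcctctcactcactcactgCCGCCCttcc
Rnf20 (chr4:49638375-49638624, plus strand): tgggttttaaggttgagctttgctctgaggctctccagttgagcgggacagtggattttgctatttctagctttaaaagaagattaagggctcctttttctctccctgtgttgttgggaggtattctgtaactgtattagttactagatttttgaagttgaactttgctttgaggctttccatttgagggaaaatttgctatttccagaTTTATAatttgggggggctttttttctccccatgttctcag
Nfil3 held 9 GC boxes, Kpnb1 2 and Rnf20 none, and the window of Rnf20 held 1 TATA box.

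Promoter windows were found for 166 of the 232 promoters with a gained contact and for 390 of the 546 with a contact lost in at least 2 Early units, as 230 and 487 windows. The GC box was present in 62.6% of gained and 64.5% of lost windows, beside 59.7% of the 4218 windows of the table's promoters and 35.7% of all 32851 RefSeq windows. For the cAMP response element TGACGTCA, to which CREB binds, the shares were 3.04%, 2.67%, 2.87% and 1.79% in the same order. The AP-1 site TGANTCA, bound by Fos and Jun proteins, was found in 3.04%, 4.11%, 4.77% and 7.81%. The E-box CACGTG was found in 9.13%, 9.65%, 9.03% and 7.15%, and the TATA box TATAAA in 11.3%, 8.83%, 8.82% and 13.6%. The NRF1 site was found in 2.17%, 1.44%, 1.42% and 0.971%, and the MEF2 site in 0.435%, 0.205%, 0.190% and 0.164%. The serum response element was in 0 gained and 0 lost windows, and also in 0 of all windows of the table's promoters. The shares of gained and lost windows lay near those of the table's promoters, and no test was made.

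In 16 gene lists, no member passed limma's test on mean score or on called contacts, and the list medians are set beside the 0.10 of all promoters. Adjusted p for the promoters named from the lists ran from 0.319 to 1 for mean score and was 0.991 for called contacts. Of 25 promoters of immediate early and activity-regulated genes, 13 were higher and 11 lower in Late, with a median difference of 0.07. Both Late pairs were above all Early units for Arc, Klf6 and Nfil3, 12% of the list against 6.95% of all promoters, and below them for Klf10. Arc had no call in Early and 1, 3, 1 and 1 in Late. Npas4, a neuronal activity-dependent transcription factor, had 4, 2, 5 and 5 calls in Early and 0, 0, 2 and 3 in Late. Junb, a component of AP-1, held 2 fragments lost in at least 2 Early units, one of which scored 117, 465 and 278 in Early 2 to 4. Members of this list thus lay on both sides.

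Among the 25 promoters of glutamate receptors and their auxiliary subunits, 16 were higher and 6 lower, with a median of 0.24, and 0 had a gained contact, against 5.24% of all promoters. Grik4, a kainate receptor subunit, had 4, 0, 1 and 2 calls in Early and 1, 1, 8 and 8 in Late. Its calls were highest in the second Late pair, and the groups overlapped. Contacts lost in at least 2 Early units were held by the metabotropic receptors Grm4 and Grm7, 8% of the list against 12.3%.

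For the 13 promoters of GABA receptors, synthesis and transport, 8 were higher and 5 lower, with a median of 0.43. Gabrb2, a subunit of the ionotropic receptor, had a gained fragment at chr11:42202001-42203126, with 14 in Late 2 and 101 and 82 in Late 3 and 4. Gad1, the GABA-synthesising enzyme, had 0, 0, 1 and 2 against 4, 3, 1 and 1, but its listed fragments lie on chromosome 10 while RefSeq places the gene on chromosome 2.

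The list of synaptic vesicle release genes had the highest median of the 16, 0.45, with 20 of 31 promoters higher and 8 lower. Slc17a6, a vesicular glutamate transporter, had no call in Early, 5 and 5 in Late 1 and 2, and none in Late 3 and 4. Napb, which takes apart SNARE complexes, had 2, 0, 7 and 7 in Early and 0, 0, 2 and 1 in Late. Rims1, Rph3a, Snap25 and Sv2b were higher in both Late pairs than in all Early units (12.9% of the list, against 6.95% of all promoters). Snap25, a membrane SNARE, reached this with scores of 3 to 7 on 4 of its fragments near chr2:136500774-136526281, another of 123 in Late 3, and 1 of 5 in Late 2. That level lies at the edge of the call.

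Postsynaptic scaffold and calcium signalling genes had 9 of 19 promoters higher and 10 lower, with a median of -0.07, below that of all promoters. Camk2d, a subunit of the calmodulin-dependent kinase, had 13, 0, 2 and 3 calls in Early and 0, 0, 6 and 7 in Late. Prkcb, a protein kinase C, held 2 gained fragments, of which chr7:129437155-129438492 scored 22 in Late 2 and 214 and 140 in Late 3 and 4. In both genes most of the Late signal came from Late 3 and 4.

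Voltage-gated channels had 18 of 32 higher and 13 lower, with a median of 0.14, and 0 gained contacts. Kcnq5, a channel of the M-current, had 0, 3, 4 and 3 calls in Early and 1, 0, 11 and 13 in Late. Kcnj10, an inward rectifier known from glia, had 3, 1, 1 and 1 against 1, 0, 1 and 1. Neither separated the groups.

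Cell adhesion and axon guidance genes were near the centre, with 24 of 48 higher, 21 lower and a median of 0.03. Efnb3, an ephrin, had 0, 0, 3 and 5 calls in Early and 1, 1, 5 and 5 in Late, and Slit2, a repulsive guidance cue, had 5, 0, 3 and 3 against 2, 1, 1 and 1. Growth factor and Wnt genes had a median of 0.33, with 15 of 23 higher and 7 lower. Fgf9 had 1, 0, 0 and 0 against 0, 0, 4 and 5, and Tcf4 had 5, 2, 5 and 5 against 0, 0, 3 and 3. Tcf4 encodes a bHLH transcription factor and not the Wnt effector, which is Tcf7l2, so its values are not read as those of a Wnt gene. The counts and the median of the list include it. Again the Late calls of Fgf9 and Tcf4 were confined to Late 3 and 4.

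Kinase cascade and phosphatase genes had 21 of 35 higher and 14 lower, with a median of 0.20, and 20% of them held a contact lost in at least 2 Early units, against 12.3% of all promoters. A gained contact was held by 11.4%, against 5.24%, so both shares were above those of all promoters. Map4k4, an upstream kinase of the JNK cascade, had 5, 1, 3 and 4 calls in Early and 6, 0, 9 and 9 in Late. Ppp4r2, a regulatory subunit of protein phosphatase 4, had 8, 3, 2 and 6 against 0, 0, 2 and 2. The catalytic subunit's promoter, Ppp4c, is one of those that share the Cd2bp2 fragment gained in Late. Map2k2, a MAP kinase kinase, shares with Aes a fragment lost from all 3 Early units, chr10:80829070-80829734, with 411, 27, 0 and 175.

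Chromatin modifiers and remodellers had 21 of 34 higher and 10 lower, with a median of 0.15. Apart from Rnf20, Kdm3a and Kdm4b, both histone demethylases, lay above all Early units in both Late pairs. Chd2, a chromatin remodeller, lay below, with 2, 4, 4 and 4 calls in Early and 1, 1, 2 and 2 in Late. Of the list, 8.82% lay above and 2.94% below, near the 6.95% and 1.99% of all promoters. Of 8 cohesin and architectural genes, 5 were higher and 3 lower, with a median of 0.20. Nipbl, the cohesin loader, had 4, 1, 1 and 2 calls in Early and none in Late. Its Early fragments were different ones in each unit, with scores from 6 to 68. Esco1, a cohesin acetyltransferase, had 2, 1, 0 and 0 against 3, 1, 7 and 7.

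Ribosomal protein and translation factor genes had 26 of 47 higher and 18 lower, with a median of 0.12. A contact lost in at least 2 Early units was held by 19.1%, against 12.3% of all promoters, and a gained contact by 4.26%, against 5.24%. Rps7, a small-subunit protein, had 3, 1, 1 and 1 calls in Early and none in Late. Its fragment at chr12:30685497-30688377 scored 186 in Early 1 and 48 in Early 2, while the Early pair listed another at chr12:29332794-29333980 with 249 and 129. Rpl21 had 2, 3, 4 and 0 against 4, 5, 7 and 7, but its fragments lie mainly on chromosome 17 and RefSeq places the gene on chromosome 5. In all, 10 of 4280 promoter names had fragments mainly on another chromosome than the RefSeq gene, namely Gad1 and 9 ribosomal protein genes of this list. The counts and the median of the list rest in part on those 9, whose fragments may not belong to the named genes.

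Ubiquitin ligase and proteasome genes had 19 of 33 higher and 12 lower, with a median of 0.19. Cul3, a cullin scaffold, had 1, 1, 2 and 2 calls in Early and 1, 3, 9 and 8 in Late, and Psma5, a proteasome subunit, had 2, 0, 3 and 4 in Early and none in Late. Mitochondrial genes had 29 of 51 higher and 21 lower, with a median of 0.19, and 11.8% had a gained contact against 5.24% of all promoters. Those with a gained contact were Atp5d, Mrpl15, Mrpl35, Mrps18a, Ndufb6 and Ndufc2. Ndufb5, a complex I subunit, had no call in Early and 5, 3, 1 and 0 in Late. Atp5k, of ATP synthase, had 3, 1, 2 and 4 against 0, 0, 1 and 1.

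Glial and vascular marker genes had 11 of 20 higher and 8 lower, with a median of 0.15, and neuron marker genes 16 of 23 higher and 4 lower, with a median of 0.19. Both medians lay near that of all promoters. Among glial and vascular genes, Flt1, an endothelial receptor, had 0, 0, 1 and 2 calls in Early and 2, 2, 2 and 3 in Late, and Cnp, of oligodendrocytes, had 2, 0, 1 and 2 and none in Late. Tubb3, neuronal tubulin, had 1, 0, 2 and 3 in Early and 2, 4, 3 and 3 in Late. Nefl, the light neurofilament, had 5, 3, 6 and 5 against 2, 2, 3 and 3. It held 3 fragments lost in at least 2 Early units, among them chr14:68725549-68726115 with 413, 65 and 26 in Early 2 to 4. Both Late pairs lay above all Early units for Gad1, Npy, Prox1, Snap25 and Tubb3, 21.7% of neuron markers against 6.95% of all promoters. They lay below for Neurod6. The fragments of Gad1, however, lie on another chromosome than the gene. In the first Late pair, Prox1 had only a score of 20 in Late 1, and Snap25 only a score of 5 in Late 2. A gained contact was held by 0% of neuron markers, against 5.24% of all promoters. Of glial and vascular markers, 10% lay above and 5% below, against 6.95% and 1.99% of all promoters.

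**Figure D5:**
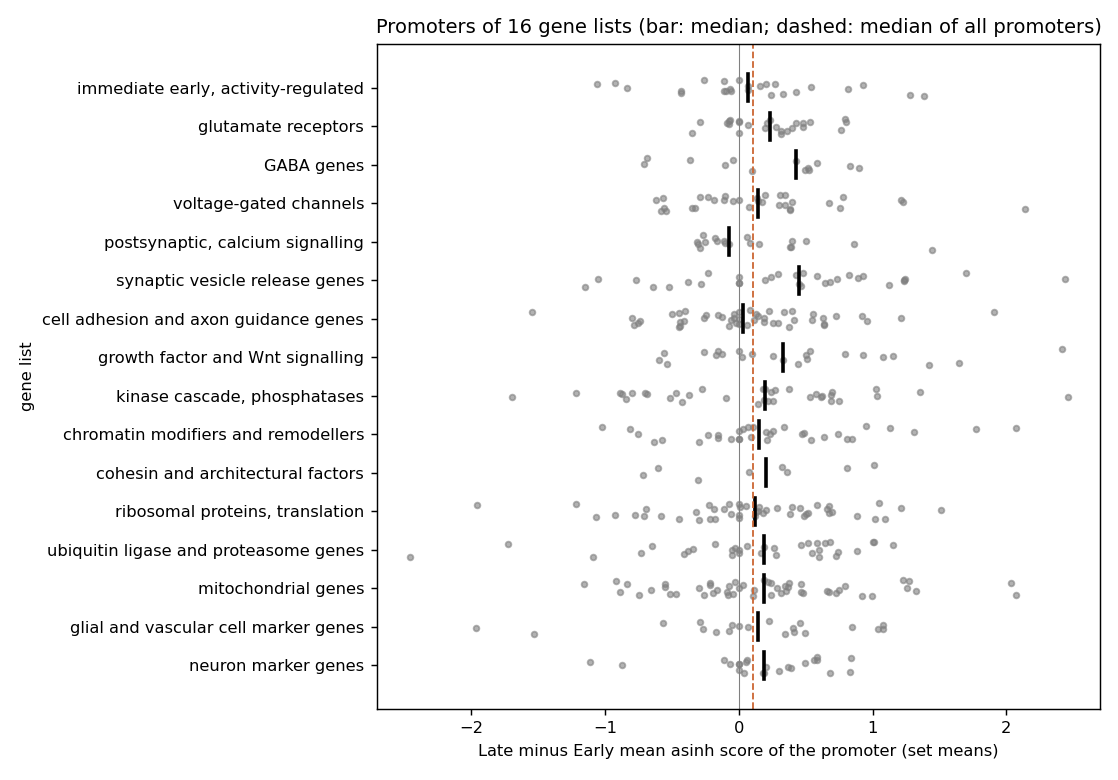
Late minus Early mean asinh score of each promoter (horizontal axis, 1 grey point per promoter, scattered vertically for legibility) in the 16 gene lists (vertical axis), with the list median as a black bar and the median of all promoters as a dashed line. Medians run from -0.07 for postsynaptic and calcium signalling genes to 0.45 for synaptic vesicle release genes, and the points of each list lie on both sides of 0.

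At 41 of the 4429 promoters a gained contact and a contact lost in at least 2 Early units occurred together. A gained contact was held by 232 promoters and such a lost contact by 546. Whether 41 exceeds what these counts would give was not tested. Since 82.5% of called listings were called in exactly 1 unit, differing fragments were common and do not show a switch of partner. The examples here were chosen after their values were seen. Uba3, the NEDD8-activating enzyme, lost chr6:97173296-97173860, with 599, 0, 1076 and 573 in Early, and gained chr6:97098164-97105117, with 0, 24, 2031 and 1418 in Late. Brd3, a bromodomain protein, lost chr2:27251970-27254710, with 203 in Early 2 and 41 in Early 4, and gained chr2:27130304-27138133, with 40, 46, 27 and 26 in Late. Vamp2, a vesicle SNARE, lost chr11:68930797-68941944, with 121, 0, 120 and 59, and gained chr11:69373139-69379970, with 13, 8, 294 and 0. By the rule for gained and lost contacts, none of these fragments could have a score in the other group.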

How the data were processed

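The authors deposited an interaction score for each promoter and fragment, per the file headers, on build mm9 per the submitters' processing notes. Its program, filters and normalization were not given in the sources used here. Scores are whole numbers of 2 or more, a dot was taken as 0, and a higher score may also carry greater depth, which is unknown. Groups come from the sample titles; the labels' collection days conflict with the protocol and were not used. Scores were put on the asinh scale, averaged within each of the 5 units, and compared with limma 3.58.1 in R 4.3.3 (robust, variance trend, no filter, Benjamini-Hochberg at 0.05). Promoters were tested on the mean over their fragments and on their number of scores of 5 or more. The table has 0 columns of no sample. Named were 8 gained and 8 lost fragments by their lowest score over the 4 libraries of the group, the 6 promoters with the most and the 6 with the fewest gained minus lost contacts, 1 gene per direction and list, and Arc, without predicted genes, clones, microRNAs and olfactory receptors; some genes that the rule selects are not reported here. Members, the 16 gene lists and tests were chosen with earlier results of these data known. Of 4429 promoter names, 4280 matched a RefSeq symbol and 141 a single synonym. Other values used Python 3.11.15, pandas 2.3.3, numpy 2.4.6 and scipy 1.17.1, with statmod 1.5.0 for the random block.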

Additional observations from a re-analysis of the deposited data

Results flagged for a closer look

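Of 126 groups of 4 libraries that were examined, 16 held a library whose gap to the nearest other exceeded Dixon's 95% critical value for the group's range; chance flags about 1 in 20 groups, and counts with few distinct values are flagged easily. Early 2 stood apart with 1185 promoters with a call, against 2647 to 2787 in the other Early libraries. Its score for the fragment of Ace and Cyb561, 606, also lay far above the 89 to 168 of the others. In called contacts per promoter, the library apart in Early had 2 for Slc26a8, 2 for Ace, 3 for Aes, 3 for Kcnj10, 1 for Fgf9, 2 for Tcf4, 1 for Rnf20, 2 for Chd2 and 3 for Rps7. The library apart in Late had 0 for Sh3bp1, 0 for Kcnj10, 2 for Slit2, 3 for Flt1 and 3 for Arc. In each of these promoters the other 3 libraries of the group had equal counts, so the gap was 1 call, except for Tcf4, Chd2, Rps7, Kcnj10 in Early and Arc, where it was larger.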

How the results depend on the processing

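Single listings gave 0 calls under every alternative run except without the variance trend, which gave 15. Promoter mean scores gave 0 except with the 8 libraries as independent, which gave 29 (21 higher and 8 lower), and with the unit as a random block, which gave 8; the cause was not tested. Called contacts per promoter gave 0 throughout. Gained contacts, 250 in the report, were 85 when every Late library had to hold the call and 117 without any score in Basal or Reactivated. Lost contacts, 21 in the report, were 91, 472 and 94 with 2 of the 3 Early units, 615 with at least 2 of 3 and 6 without any score in Basal or Reactivated. Leaving out 1 library moved lost contacts between 17 and 472 (94 without Early 1, 472 without Early 2) and gained contacts between 169 and 295. Library measures turned with 1 library: the Late minus Early difference ran from -626.25 to 1994.25 for listings, from -731 to 1861.5 for contacts called, from -153.5 to 577.5 for promoters with a call and from -44.5 to 0.5 for the median score, each reversed without Early 2. Of 82 values of named fragments and promoters, 78 kept their direction under every alternative. The others were Ace, at 1.34 on mean score from fragments listed with 1 promoter; Crebzf, whose mean score difference was 0.00175 from such fragments, 0.0307 with quantile normalization, 0.0333 when scaled to library medians, 0.00102 as scored or not, and -0.0883 to 0.0801 over left-out libraries; and the call differences of Crebzf (-2.75 to 3.25) and Camk2d (-4.5 to 2) over left-out libraries. With the replicate block, the fits gave 0 calls for listings, promoter mean scores and called contacts. Same-numbered Early and Late libraries had deviations that correlated at -0.0323 to 0.0316, and differently numbered ones at -0.0433 to 0.0463. No pairing by number was seen, but an Early and a Late library share few listings, so the check could not exclude one. Having 2 units against 3 limits every test.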
